A study of Homo sapiens with 12 samples.

Results

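The 37 genes described here encode core proteins of the spliceosome, the machine that removes introns from pre-mRNA. They were taken by name from the 58684 gene rows of the deposited count table, and all 37 were found there. The RNA came from U2OS, an established human osteosarcoma line, and was sequenced in 4 groups of 3 libraries. The groups were Cap IP and input of cells that stably carried eIF4E-Flag, and Cap IP and input of cells that stably carried the vector. eIF4E is the translation factor that binds the m7G cap, and per its title the study asked how eIF4E bears on steady-state capping. The labels name the precipitation only as Cap IP, and they do not say how many clones the stable cells came from. Nor do they say whether the libraries of a group came from separate cultures, so the p-values measure the spread between these libraries, which may be technical.

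The spliceosome is assembled from small nuclear ribonucleoproteins (snRNPs), each an snRNA with its proteins. U1 recognises the 5′ splice site, U2 with the U2AF factors marks the branch point and the 3′ splice site, and the tri-snRNP of U4, U6 and U5 then joins. DEAH-box helicases drive the rearrangements that activate the complex, carry it through catalysis and take it apart. The mRNAs of these proteins are RNA polymerase II transcripts and receive an m7G cap at their first base.

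The libraries held 1206321 to 1813486 counts. Levels are given as CPM, counts scaled to the TMM-adjusted library size, on which 3 counts stood for 1.19 to 3.15 CPM. The TMM factors lay between 0.667 and 0.891 in Cap IP and between 1.17 and 1.49 in input. EIF4E, the gene expressed from the construct, had 25.1 to 29.8 CPM in eIF4E Cap IP, 11.9 to 15.4 CPM in eIF4E input, 12.6 to 19.2 CPM in vector Cap IP and 4.81 to 9.70 CPM in vector input. Osteoblast-lineage genes, of which 6 of 7 had counts, summed to 796 to 1070 CPM in eIF4E input and 975 to 1420 CPM in vector input. A list of 4 blood markers summed to at most 1.05 CPM in any library. A list of 4 epithelial markers, all with counts, summed to 4900 to 6570 CPM in eIF4E Cap IP, 2450 to 3980 CPM in eIF4E input, 3050 to 4650 CPM in vector Cap IP and 1370 to 2240 CPM in vector input. The epithelial sums did not overlap between eIF4E and vector cells in either fraction, and their part in the results was not tested. Each list was read only as a sum, so single genes of it may go another way.

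Of the 37 genes, 36 had enough counts to be tested. The exception was U2AF1, the small U2AF subunit that reads the AG at the 3′ splice site, with 0 counts in all 12 libraries. Its transcript of 945 bases aligned over its whole length at chr21:43092956-43107570, where the annotation places it. It aligned as well, in 8 blocks of at least 98.9% identity, at chr21:6484623-6499248 (GRCh38). How reads from such copies were assigned was not tested. Per kilobase of the annotated transcript, input levels of the other members ran over a wide range. SNRPD2 stood highest, with a mean of 241 CPM per kb in eIF4E input and 193 CPM per kb in vector input. U2AF2, the large U2AF subunit that binds the polypyrimidine tract, followed with 139.7 and 102 CPM per kb in these groups. SNRNP70 came next with 129 and 89.6 CPM per kb. AQR, an intron-binding helicase, stood lowest with 0.556 CPM per kb in eIF4E input and 0.653 CPM per kb in vector input. Pseudogene rows of SNRPF, SNRPG, SNRPE, SNRPC and SF3A3 held 30.1%, 29.4%, 28.9%, 18.9% and 6.1% as many counts as the genes themselves, so the values of these 5 genes are uncertain. Exons of 13 of the 37 genes lie opposite another gene, and for 9 of them that gene has a row in the table. For SNRPD2, SNRPF, SF3A2 and PRPF31 these rows are QPCTL, CCDC38, PLEKHJ1 and TFPT. They averaged 9.5, 2.5, 183 and 41.6 counts, against 207, 13.6, 83.8 and 167 for the members. On the same strand, SNRPD3, SNRPB, SNRNP200 and SNRPA1 share 548, 256, 233 and 24 exon bases with another gene. How reads of these shared bases were counted was not tested.

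The first transcribed base is the base that carries the cap. RefSeq (GRCh38.p14) gave a start site for 34 of the 37 genes. That base was G in 14 genes, A in 13, C in 7 and T in 0. Among the 7552 tested genes with a start site it was G in 40.7%, A in 45.3%, C in 12.6% and T in 1.3%. The 5′ ends of the RNAs were not measured here. The motif CGGAAG, the core of the sites bound by ETS-family factors, was searched on both strands in the 250 bases before the start. It was present in 23 of 34 promoters (67.6%), against 16.8% of all 27305 promoters in the table and 27.9% of the 7552 promoters of tested genes. The 60 bases before the start are shown for 9 of the 10 genes that differed between Cap IP and input in both kinds of cells, with the annotated first base at the end. Capitals mark CGGAAG, its reverse complement CTTCCG and that last base.
PRPF4, chr9:113275598-113275658, plus strand: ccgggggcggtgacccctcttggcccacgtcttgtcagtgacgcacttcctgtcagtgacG
SNRPB2, chr20:16729966-16730026, plus strand: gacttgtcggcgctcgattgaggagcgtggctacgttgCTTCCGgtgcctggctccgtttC
SNRPD3, chr22:24555590-24555650, plus strand: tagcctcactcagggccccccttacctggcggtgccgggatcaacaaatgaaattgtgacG
PRPF8, chr17:1684867-1684927, minus strand: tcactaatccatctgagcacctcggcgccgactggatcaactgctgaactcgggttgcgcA
SNRNP200, chr2:96305546-96305606, minus strand: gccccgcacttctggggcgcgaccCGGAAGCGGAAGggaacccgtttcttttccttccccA
EFTUD2, chr17:44899445-44899505, minus strand: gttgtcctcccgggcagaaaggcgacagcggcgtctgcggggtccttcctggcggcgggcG
SF3B2, chr11:66052304-66052364, plus strand: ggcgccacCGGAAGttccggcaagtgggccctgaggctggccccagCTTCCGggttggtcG
SF3A1, chr22:30356894-30356954, minus strand: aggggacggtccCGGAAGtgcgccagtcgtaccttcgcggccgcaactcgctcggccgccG
DHX8, chr17:43483915-43483975, plus strand: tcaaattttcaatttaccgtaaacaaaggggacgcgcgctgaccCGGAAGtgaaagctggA
The 3 genes at the top of this set were higher in Cap IP and end in G, C and G. The 6 below were lower in Cap IP and end in A, A, G, G, G and A. SF3B3, the tenth such gene, at chr16:70523791-70577670, is named only.

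In total RNA, most spliceosome genes had positive fold changes in eIF4E cells over vector cells, but none passed the test. Of the 36 genes, 30 had a positive log2 fold change and 6 a negative one, with a median of 0.40, against -0.05 over all 12460 genes tested. Called genes, at an adjusted p under 0.05 in edgeR's quasi-likelihood test, numbered 0 of 36, where 0.530% of all genes were called. DESeq2 called 0 of 36 too, and 151 of all 12460 genes. At an unadjusted p under 0.05 in edgeR there were 9 of 36, and 1683 of all genes. The 3 libraries of each group lay apart, with eIF4E input above vector input, for 12 of 36 genes, where 8.45% of all genes did so. They lay apart the other way for 2 of 36 genes, SNRPD3 and SNRPG, where 10.2% of all genes did so. All members together took 0.358% to 0.392% of the counts in eIF4E input and 0.253% to 0.328% in vector input. The epithelial sums given above lay apart between these groups too. In such bulk RNA, a change in the make-up of the cells and a change of RNA per cell cannot be told apart.

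By role, the median log2 fold change of eIF4E against vector input was 0.33 for the 7 Sm ring genes, 0.48 for the 3 U1 genes and 0.38 for the 10 tested U2 and U2AF genes. It was 0.53 for the 9 genes grouped here as U5 and tri-snRNP, all of which were positive, with PRPF38A lowest at 0.03. The 4 DEAH helicases had a median of 0.50 and were all positive too. The 3 genes of the Prp19 complex and AQR had a median of -0.25. Under every scaling tried each of these medians kept its sign.

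The 4 genes with the smallest p in input were SNRPG, DHX16, EFTUD2 and SF3A2. SNRPG, the smallest protein of the Sm ring, had 11.9, 8.80 and 11.4 CPM in eIF4E input, against 21.3, 26.2 and 14.3 CPM in vector input. It was low in all 3 eIF4E libraries, at a log2 fold change of -0.93 ± 0.34 (SE) and an edgeR adjusted p of 0.221. Its pseudogene rows held 29.4% as many counts as SNRPG, so its values are uncertain. DHX16, the helicase that activates the assembled spliceosome, had 42.3, 41.1 and 50.9 CPM in eIF4E input, against 27.8, 31.0 and 22.8 CPM in vector input. The groups did not overlap, and the log2 fold change was 0.72 ± 0.27 at an edgeR adjusted p of 0.249. EFTUD2, the GTPase of the U5 snRNP, had 49.0, 69.9 and 83.1 CPM in eIF4E input, against 36.9, 44.4 and 29.1 CPM in vector input. Its log2 fold change was 0.87 ± 0.33, with an edgeR adjusted p of 0.253. SF3A2, a subunit of the SF3A complex of U2, had 59.3, 70.9 and 62.8 CPM in eIF4E input, against 45.2, 47.0 and 29.5 CPM in vector input. Its log2 fold change was 0.67 ± 0.28 (edgeR adjusted p = 0.295). The size of the median depended on vector input replicate 2, without which it was 0.58.

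**Figure D1:**
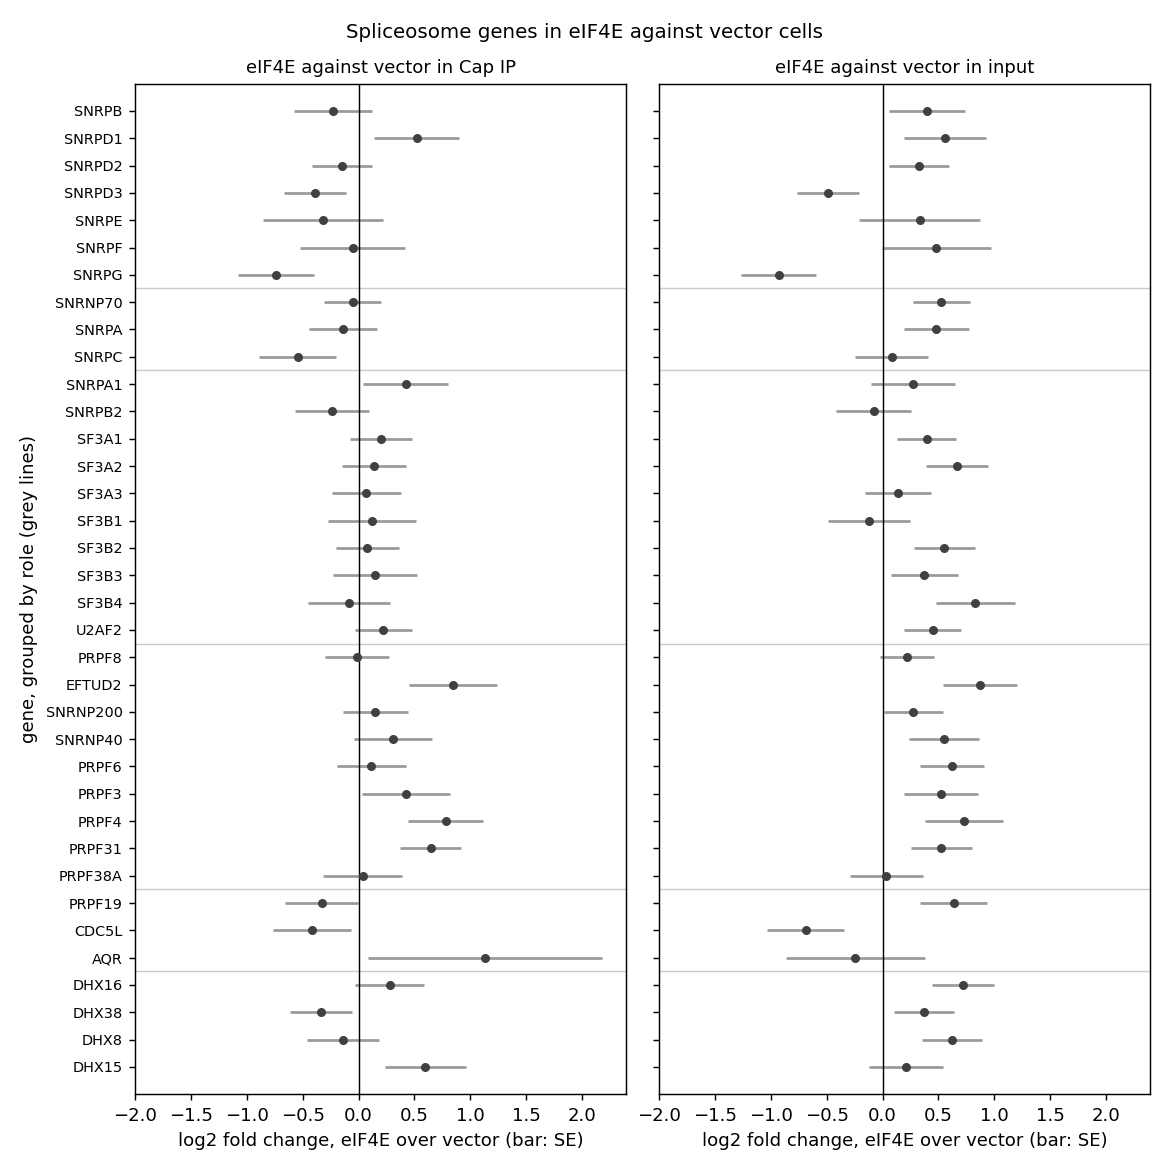
Log2 fold changes of eIF4E over vector cells for the 36 tested genes, in Cap IP (left) and input (right), as points with the standard error of edgeR's fit as bars, n = 3 libraries per group. Grey lines part the role groups. In input 30 of 36 points lie right of 0, and in Cap IP 20 of 36 do, with none called in either.

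Spliceosome genes were called in both directions between Cap IP and input, as all genes were. PRPF8 and SNRNP200 of the U5 snRNP and SF3B3 of the U2 snRNP were lower in Cap IP in both kinds of cells, while PRPF4, SNRPB2 and SNRPD3 were higher. In eIF4E cells edgeR called 4 of 36 genes higher, where 21.9% of all genes were, and 11 of 36 lower, where 23.3% of all genes were. In vector cells it called 6 of 36 higher, against 18.5% of all genes, and 8 of 36 lower, against 21.0%. Both kinds of cells shared 10 called genes of the 36, where 30.9% of all genes were called in both. Of the 10, 3 were higher and 7 lower, where 15.3% of all genes were higher in both and 15.6% lower in both. They are 10 of the 15 called in eIF4E cells and 10 of the 14 called in vector cells. No gene of all 12460 was called in opposite directions. The median log2 fold change of the 36 genes was -0.12 in eIF4E cells, against -0.13 over all genes, and 0.24 in vector cells, against -0.04. The eIF4E median was -0.24 without eIF4E Cap IP replicate 2 and -0.013 without eIF4E Cap IP replicate 1. Without vector Cap IP replicate 1 the vector median was 0.048. In vector cells 9 of the 36 genes were called without any 1 of that library, vector Cap IP replicate 2 or vector input replicate 3. The share of all genes called in these fits is not given here. When library sizes were set to total counts, the median of all genes shifted to -0.99 in eIF4E cells and -0.78 in vector cells, that of the 36 genes to -0.95 and -0.51, and of the 36 genes 0 were called higher in either. Under that scaling 22 of 36 were lower in eIF4E cells, where 8.84% of all genes were called higher and 47.1% lower, and 15 of 36 in vector cells, where 5.92% were higher and 40.2% lower. The higher calls below are therefore relative to the TMM scaling. Marker sums also lay apart between the fractions, with the epithelial sum higher in Cap IP and the osteoblast sum lower. The osteoblast sum was 267 to 407 CPM in eIF4E Cap IP and 396 to 883 CPM in vector Cap IP. The part of these sums was not tested, and single markers were not compared.

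**Figure D2:**
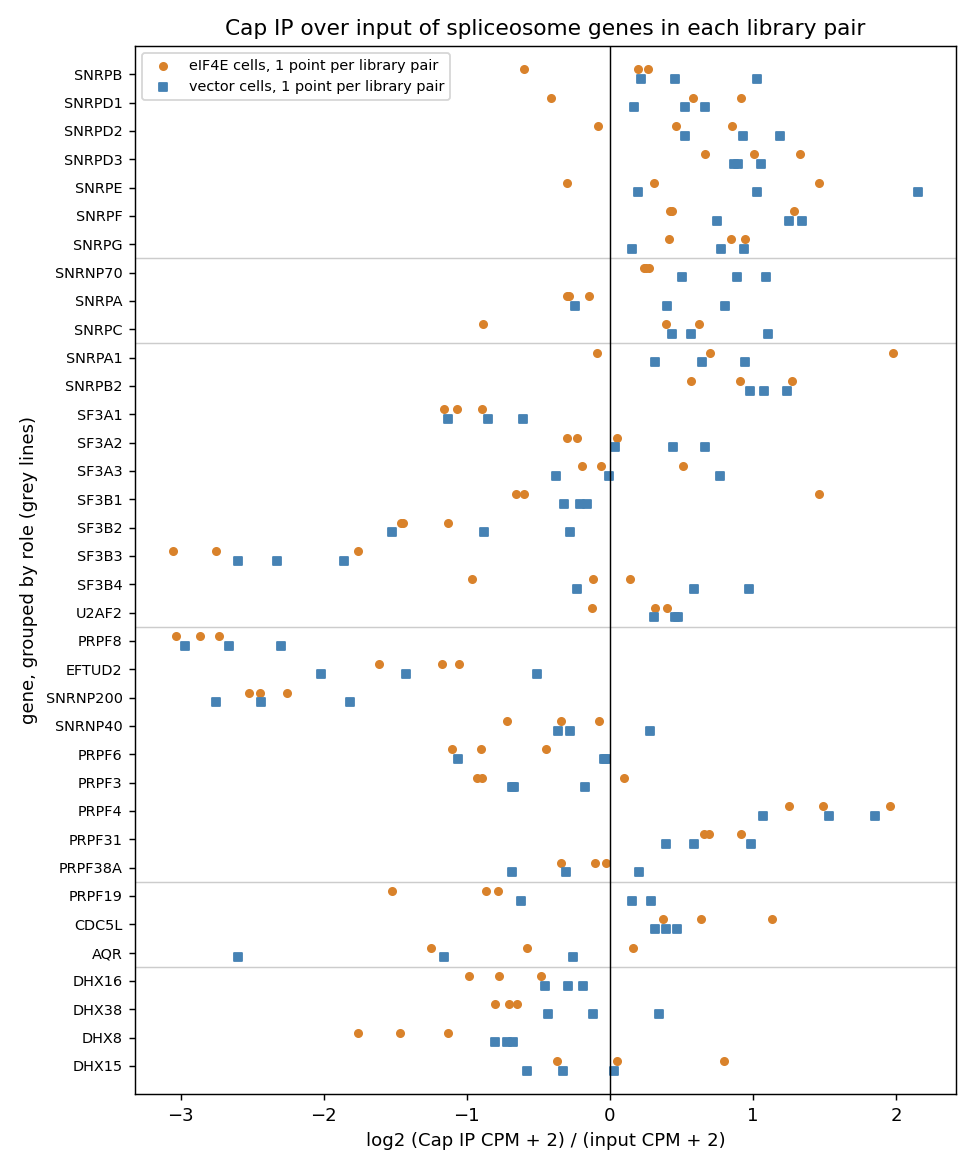
Log2 ratio of Cap IP over input CPM, each with 2 CPM added, for the 36 tested genes in each pair of libraries whose titles share a stem, with eIF4E cells as orange circles and vector cells as blue squares. PRPF8, SNRNP200 and SF3B3 lie far left in all 6 pairs and PRPF4, SNRPB2 and SNRPD3 lie right of 0 in all 6 on the TMM scale. With total counts as library sizes these last 3 were not called in either kind of cells.

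The Sm ring proteins, which close around the Sm site of the U1, U2, U4 and U5 snRNAs, had median log2 fold changes of 0.66 in eIF4E cells and 0.87 in vector cells on the TMM scale, and of -0.18 and 0.12 with total counts as library sizes. SNRPD3 had 338, 222 and 206 CPM in eIF4E Cap IP, against 133, 109.5 and 129 CPM in eIF4E input. For SNRPD3, vector Cap IP held 278, 408 and 319.9 CPM, against 151, 218 and 153 CPM in vector input. It rose in both, by log2 1.04 ± 0.28 (edgeR adjusted p = 0.00518) and 0.94 ± 0.28 (edgeR adjusted p = 0.0108). Without vector Cap IP replicate 2 the edgeR adjusted p in vector cells was 0.0512. SNRPD2, also of the ring, had 167, 179 and 144 CPM in eIF4E Cap IP and 91.7, 129 and 152 CPM in eIF4E input, which overlapped. For SNRPD2, vector Cap IP held 181, 185 and 177 CPM, against 93.7, 128 and 76.3 CPM in vector input, a rise of log2 0.87 ± 0.27 (edgeR adjusted p = 0.0159). That call was lost without vector input replicate 1 or 3, at edgeR adjusted p of 0.054 and 0.0848. SNRPF, another ring protein, had 8.21, 18.4 and 13.9 CPM in eIF4E Cap IP, against 5.53, 6.35 and 9.87 CPM in eIF4E input. For SNRPF, vector Cap IP held 19.4, 16.8 and 7.02 CPM, against 6.46, 5.88 and 3.37 CPM in vector input. Only the vector difference passed, at log2 1.44 ± 0.49 (edgeR adjusted p = 0.0244), and it was lost at edgeR adjusted p of 0.0795 to 0.115 without any 1 of vector Cap IP replicate 1, vector Cap IP replicate 2 or vector input replicate 3. SNRPB, SNRPD1, SNRPE and SNRPG passed in neither kind of cells.

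The U1 proteins contact the U1 snRNA and help it bind the 5′ splice site. SNRNP70, which binds the first stem-loop of U1, had 236, 250.1 and 286 CPM in eIF4E Cap IP and 194, 209.7 and 242 CPM in eIF4E input, which overlapped. For SNRNP70, vector Cap IP held 318, 225 and 258 CPM, against 171, 158 and 120.2 CPM in vector input, a rise of log2 0.84 ± 0.26 (edgeR adjusted p = 0.0142). Without vector Cap IP replicate 1 or vector input replicate 3 the edgeR adjusted p was 0.069 and 0.075. SNRPA, which binds another stem-loop of U1, had log2 fold changes of -0.26 ± 0.30 in eIF4E cells and 0.36 ± 0.30 in vector cells. SNRPC, which steadies the pairing of U1 with the splice site, had 0.07 ± 0.34 and 0.69 ± 0.33 in these cells, and none of these 4 passed.

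The U2 proteins went both ways. SNRPB2, which binds the U2 snRNA together with SNRPA1, had 27.7, 18.4 and 31.7 CPM in eIF4E Cap IP, against 13.8, 11.7 and 11.9 CPM in eIF4E input. For SNRPB2, vector Cap IP held 35.0, 31.5 and 25.5 CPM, against 15.5, 15.0 and 9.70 CPM in vector input. It rose by log2 1.04 ± 0.34 in eIF4E cells (edgeR adjusted p = 0.0163) and 1.20 ± 0.33 in vector cells (edgeR adjusted p = 0.00758). The eIF4E call was lost at edgeR adjusted p of 0.0525 to 0.0927 without any 1 of eIF4E Cap IP replicate 1, eIF4E input replicate 2 or eIF4E Cap IP replicate 3. SF3B3, a large scaffold protein of the SF3B complex that grips the branch site, had 19.5, 25.1 and 10.9 CPM in eIF4E Cap IP, against 143, 89.9 and 105 CPM in eIF4E input. For SF3B3, vector Cap IP held 21.4, 18.9 and 10.8 CPM, against 82.8, 103 and 75.9 CPM in vector input. It fell, at log2 -2.60 ± 0.34 (edgeR adjusted p = 1.11e-05) in eIF4E cells and -2.38 ± 0.35 (edgeR adjusted p = 3.74e-05) in vector cells.

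SF3B2, another SF3B subunit, had 96.5, 77.3 and 109 CPM in eIF4E Cap IP, against 214, 216 and 301 CPM in eIF4E input. For SF3B2, vector Cap IP held 83.6, 70.4 and 112 CPM, against 155, 206 and 137 CPM in vector input. The log2 fold changes were -1.37 ± 0.28 (edgeR adjusted p = 0.000645) and -0.90 ± 0.28 (edgeR adjusted p = 0.0155). The vector call was lost at edgeR adjusted p of 0.0576 to 0.084 without any 1 of vector Cap IP replicate 1, vector Cap IP replicate 2 or vector input replicate 2. SF3A1, the scaffold of the SF3A complex, had 63.6, 76.3 and 80.3 CPM in eIF4E Cap IP, against 144, 162 and 151 CPM in eIF4E input. For SF3A1, vector Cap IP held 43.8, 77.8 and 69.6 CPM, against 98.3, 142 and 107 CPM in vector input. It fell, at log2 -1.05 ± 0.27 (edgeR adjusted p = 0.00406) and -0.86 ± 0.27 (edgeR adjusted p = 0.0171), the vector call being lost without vector Cap IP replicate 1 or vector input replicate 2, at edgeR adjusted p of 0.108 and 0.0864. SF3A1 shares 190 exon bases with CCDC157 on the opposite strand, which had a mean of 211 counts against 176 for SF3A1, and rose in eIF4E cells, by log2 0.73 ± 0.28 (edgeR adjusted p = 0.0376). SF3B1, which clasps the branch-point helix and is a drug target, had 0.00 ± 0.39 in eIF4E cells and -0.24 ± 0.38 in vector cells. Its eIF4E libraries went both ways, with 26.7, 21.25 and 43.6 CPM in Cap IP, against 43.1, 33.2 and 14.5 CPM in input. SNRPA1, SF3A2, SF3A3, SF3B4 and U2AF2 passed in neither.

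The U5 and tri-snRNP genes included the lowest log2 fold changes. PRPF8, the scaffold around the catalytic RNA core, had 27.7, 26.1 and 26.8 CPM in eIF4E Cap IP, against 196, 202 and 234 CPM in eIF4E input. For PRPF8, vector Cap IP held 31.1, 26.3 and 24.3 CPM, against 161, 219 and 164 CPM in vector input. It fell, at log2 -2.97 ± 0.28 (edgeR adjusted p = 4.37e-07) in eIF4E cells and -2.74 ± 0.27 (edgeR adjusted p = 1.19e-06) in vector cells. SNRNP200, the helicase that unwinds U4 from U6, had 51.3, 37.7 and 46.6 CPM in eIF4E Cap IP, against 253, 226 and 263 CPM in eIF4E input. For SNRNP200, vector Cap IP held 32.1, 31.5 and 56.8 CPM, against 183, 224 and 205 CPM in vector input. It fell, at log2 -2.45 ± 0.29 (edgeR adjusted p = 3.98e-06) and -2.33 ± 0.29 (edgeR adjusted p = 8.80e-06). EFTUD2 had 22.6, 29.9 and 25.8 CPM in eIF4E Cap IP, all below the 49.0 to 83.1 CPM of eIF4E input. In vector cells it had 25.3, 9.46 and 9.58 CPM in Cap IP, all below the 29.1 to 44.4 CPM of input. It fell, at log2 -1.36 ± 0.35 (edgeR adjusted p = 0.00414) and -1.33 ± 0.38 (edgeR adjusted p = 0.00849). The exons of EFTUD2 lie opposite HIGD1B over 145 bases, and opposite CCDC103, which had 0 counts, over 304 bases. HIGD1B averaged 18.1 counts against 63.8 for EFTUD2. HIGD1B also fell, at log2 -2.11 ± 0.54 in eIF4E cells (edgeR adjusted p = 0.00359) and -1.75 ± 0.49 in vector cells (edgeR adjusted p = 0.00827).

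PRPF4, a WD-repeat protein of the U4/U6 snRNP, went the other way. It had 103, 79.2 and 68.4 CPM in eIF4E Cap IP, against 24.9, 26.9 and 27.5 CPM in eIF4E input. For PRPF4, vector Cap IP held 71.0, 34.7 and 40.2 CPM, against 23.3, 15.5 and 9.70 CPM in vector input. It rose by log2 1.66 ± 0.34 (edgeR adjusted p = 0.000579) and 1.61 ± 0.35 (edgeR adjusted p = 0.00144), and with total counts as library sizes the edgeR adjusted p was 0.0542 and 0.0524. PRPF3, its partner on U4/U6, did not pass, with log2 fold changes of -0.67 ± 0.36 in eIF4E cells and -0.57 ± 0.37 in vector cells. PRPF31, which binds the U4 snRNA with a small partner protein, had 146, 179 and 201 CPM in eIF4E Cap IP, against 91.7, 93.8 and 124 CPM in eIF4E input. It rose by log2 0.77 ± 0.27 (edgeR adjusted p = 0.0274), but the log2 value was -0.05 with total counts as library sizes. The call was also lost without any 1 of eIF4E input replicate 1, eIF4E input replicate 2, eIF4E Cap IP replicate 2 or eIF4E Cap IP replicate 3, at edgeR adjusted p of 0.0773 to 0.116. PRPF6, which bridges U5 and U4/U6, fell, at log2 -0.84 ± 0.30 in eIF4E cells (edgeR adjusted p = 0.0261). That call was lost at edgeR adjusted p of 0.0643 to 0.114 without any 1 of eIF4E Cap IP replicate 1, eIF4E Cap IP replicate 2 or eIF4E input replicate 3. SNRNP40 and PRPF38A passed in neither kind of cells.

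**Figure D3:**
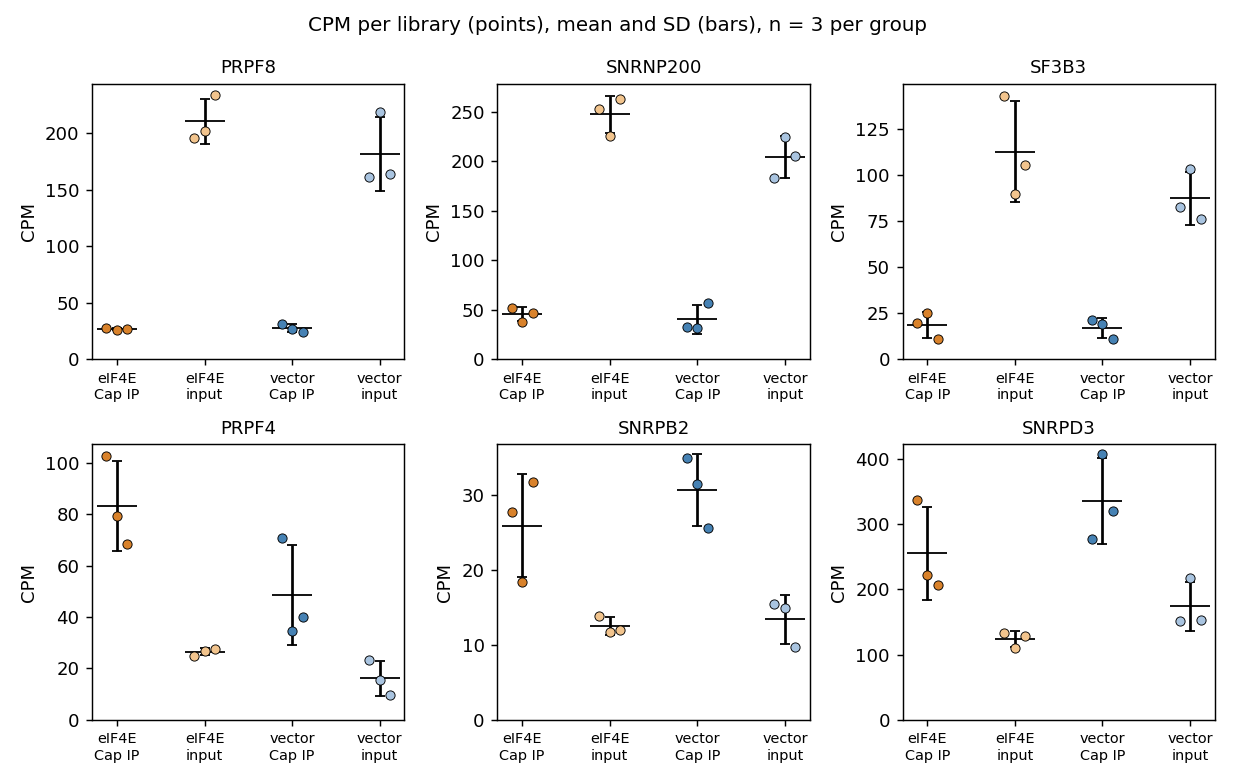
CPM of 6 genes in each library (points), with the mean and SD of 3 libraries (bars), for eIF4E Cap IP, eIF4E input, vector Cap IP and vector input from left to right. The Cap IP libraries lie below the input libraries of the same cells for PRPF8, SNRNP200 and SF3B3 and above them for PRPF4, SNRPB2 and SNRPD3. The last 3 were not called with total counts as library sizes.

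Of the Prp19 complex, PRPF19, its ubiquitin ligase, fell in eIF4E cells, at log2 -1.08 ± 0.31 (edgeR adjusted p = 0.00898), and CDC5L, its DNA- and RNA-binding partner, had values of 0.67 ± 0.35 in eIF4E cells and 0.40 ± 0.34 in vector cells that did not pass. AQR was called lower in vector cells, at log2 -2.39 ± 0.87 (edgeR adjusted p = 0.0346), on counts of 3, 1 and 0 in Cap IP against 6, 9 and 24 in input. That call was lost at edgeR adjusted p of 0.0908 to 0.165 without any 1 of vector Cap IP replicate 2, vector Cap IP replicate 3 or vector input replicate 3. The DEAH helicases were lower where they were called. DHX8, which releases the finished mRNA, had 14.4, 18.4 and 14.9 CPM in eIF4E Cap IP, against 53.4, 42.5 and 44.6 CPM in eIF4E input. For DHX8, vector Cap IP held 19.4, 15.8 and 17.2 CPM, against 32.3, 27.3 and 31.6 CPM in vector input. It fell, at log2 -1.56 ± 0.30 (edgeR adjusted p = 0.000334) in eIF4E cells. Its fall in vector cells was log2 -0.79 ± 0.30 (edgeR adjusted p = 0.0380), a call lost at edgeR adjusted p of 0.0504 to 0.111 without any 1 of the 6 vector libraries. DHX16 and DHX38, which act before and between the catalytic steps, fell in eIF4E cells, at log2 -0.79 ± 0.29 (edgeR adjusted p = 0.0304) and -0.73 ± 0.28 (edgeR adjusted p = 0.0375). DHX16 lost its call without any 1 of 4 of the 6 eIF4E libraries, at edgeR adjusted p of 0.0529 to 0.0996, and DHX38 without any 1 of all 6, at 0.0544 to 0.132. DHX15, the helicase that disassembles the complex, passed in neither kind of cells. Exons of DHX38 lie opposite PMFBP1, with a mean of 201 counts against 149, and opposite TXNL4B, with 21.7. TXNL4B rose, by log2 1.03 ± 0.35 in eIF4E cells (edgeR adjusted p = 0.0228) and 0.95 ± 0.35 in vector cells (edgeR adjusted p = 0.0338). Exons of DHX16 lie opposite C6orf136, with a mean of 56.0 counts against 49.8, and those of DHX8 opposite ETV4, with 53.6 against 49.5. ETV4 was lower too in eIF4E cells, at log2 -1.11 ± 0.37 (edgeR adjusted p = 0.0200), and had 0.08 ± 0.38 in vector cells. Whether counting used strand is not stated in the labels, so reads of such pairs may be mixed.

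The code shared by the titles of an input and a Cap IP library was also used as a block. With it, 17 of the 36 genes were called in vector cells in place of 14. Of all genes 48.8% were called with the block, in place of 39.5%. The 3 added were SNRPE at log2 1.36 (edgeR adjusted p = 0.0286), SNRPC at 0.74 (edgeR adjusted p = 0.0266) and PRPF31 at 0.67 (edgeR adjusted p = 0.0175), all higher in Cap IP.

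The Cap IP change, on the TMM scale, ran with coding length. Genes of up to 1000 coding bases, 12 of the 36, had a median log2 fold change of 0.55 in eIF4E cells and 0.68 in vector cells. The 9 genes of 1000 to 2000 bases had medians of 0.06 and 0.41, the 7 genes of 2000 to 3000 bases had -0.84 and -0.57, and the 8 longer genes had -1.28 and -1.56. Among all 8812 protein-coding genes matched, these 4 classes had medians of 0.12, -0.38, -0.69 and -1.27 in eIF4E cells and 0.40, -0.13, -0.57 and -1.17 in vector cells. The Spearman correlation across the 36 genes was -0.72 in eIF4E cells and -0.81 in vector cells, against -0.36 and -0.45 across all 8812. With transcript length in place of coding length it was weaker, at -0.53 and -0.71, against -0.28 and -0.4 across all 8812. It is a correlation across genes of the same libraries, and genes are not independent replicates. PRPF8 and SNRNP200, with 7005 and 6408 coding bases the longest of the 36, stood at -2.97 and -2.45 in eIF4E cells and at -2.74 and -2.33 in vector cells. Genes off this order, picked out after their values were seen, were PRPF4 and CDC5L, which stood above others of their length, and SF3B1. With 3912 coding bases SF3B1 stood at 0.00 and -0.24, where SF3B3 with 3651 was at -2.60 and -2.38. Their annotated transcripts were less alike in length, with 6463 bases for SF3B1 and 9692 for SF3B3. The log2 ratios of SF3B1 in the eIF4E library pairs were -0.65, -0.60 and 1.46, so its 0.00 rested on replicate 3. Length was not a term in the fit, so its part in the single calls was not tested.

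**Figure D4:**
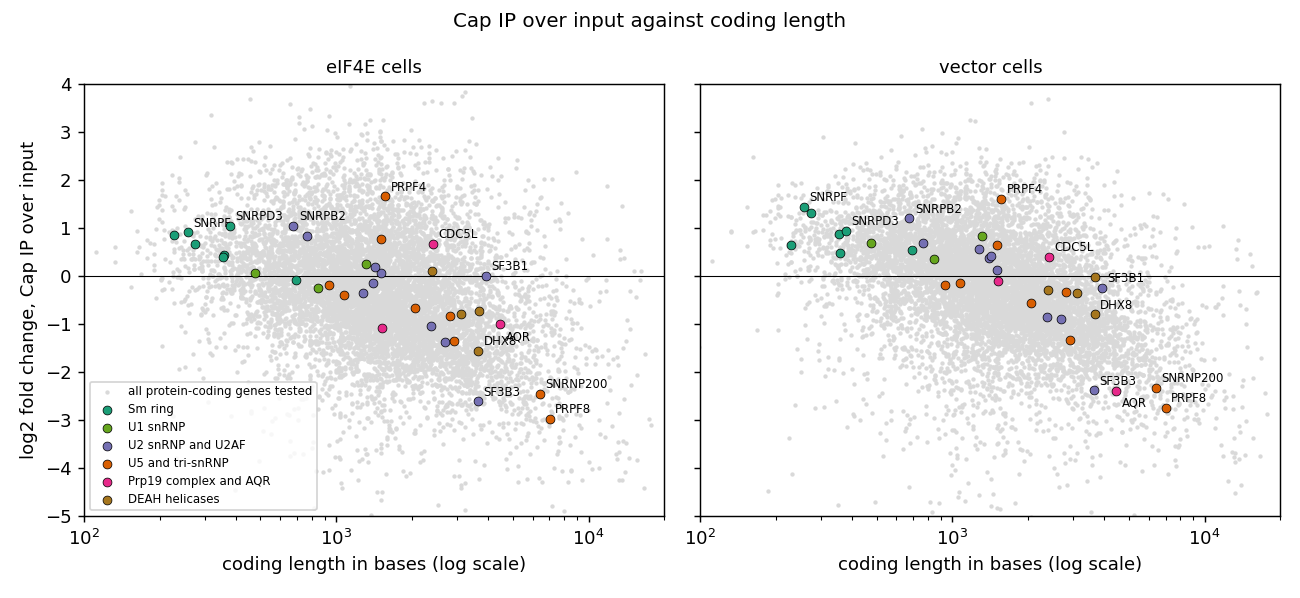
Log2 fold change of Cap IP over input against coding length (log scale) in eIF4E cells (left) and vector cells (right), with the 36 genes coloured by role over 8812 protein-coding genes in grey, of which 67 lie outside the axes in one or both panels. Short Sm ring genes lie at the upper left and PRPF8 and SNRNP200 at the lower right in both panels, on the TMM scale; with total counts as library sizes the median of the Sm ring is -0.18 in eIF4E cells.

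Whether the Cap IP change itself differed with eIF4E was tested as the difference of the 2 log2 fold changes, eIF4E minus vector cells. edgeR called 0 of 36 genes and 0% of all 12460, where 1 of 36 and 728 of all genes had an unadjusted p under 0.05, and DESeq2 called 0 of all genes as well. The difference was negative for 26 of the 36 genes, with a median of -0.225, against 0.02 over all genes. The median was -0.37 without vector input replicate 2 and -0.14 without vector input replicate 3. These differences share the input libraries with the first comparison, in which most of the genes had a positive value.

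The smallest p of the difference belonged to PRPF19, DHX38, DHX8 and SF3B4. PRPF19 had 33.9, 41.5 and 25.8 CPM in eIF4E Cap IP, against 63.2, 72.8 and 77.9 CPM in eIF4E input. For PRPF19, vector Cap IP held 52.5, 41.0 and 34.5 CPM and vector input 42.7, 64.1 and 30.8 CPM. It was lower in Cap IP in all 3 eIF4E pairs, while the vector groups overlapped, and the difference was -0.97 ± 0.44 (edgeR adjusted p = 0.833). DHX38 had 78.0, 58.9 and 73.4 CPM in eIF4E Cap IP, against 128, 104 and 116 CPM in eIF4E input. For DHX38, vector Cap IP held 124, 67.3 and 74.1 CPM and vector input 97.6, 91.4 and 80.5 CPM. The difference was -0.71 ± 0.39 (edgeR adjusted p = 0.834), and for DHX8, with the values above, it was -0.76 ± 0.42 (edgeR adjusted p = 0.835). SF3B4, an RNA-binding SF3B subunit, had 32.8, 43.5 and 27.8 CPM in eIF4E Cap IP and 29.6, 47.4 and 56.1 CPM in eIF4E input. For SF3B4, vector Cap IP held 18.5, 48.4 and 43.4 CPM and vector input 22.0, 31.5 and 21.1 CPM. Its groups overlapped in both kinds of cells, with a difference of -0.92 ± 0.51 (edgeR adjusted p = 0.835). PRPF8, SNRNP200, SF3B3, EFTUD2 and PRPF4 kept their Cap IP calls in both kinds of cells whichever library was left out. For them the difference was -0.23 ± 0.38, -0.12 ± 0.40, -0.22 ± 0.49, -0.03 ± 0.56 and 0.05 ± 0.50.

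Within Cap IP, no spliceosome gene passed the test between eIF4E and vector cells. The median log2 fold change of the 36 genes was 0.07, against -0.01 over all genes, with 20 positive and 16 negative, and ran from 0.006 without either vector or eIF4E Cap IP replicate 2 up to 0.121 without vector Cap IP replicate 1. edgeR called 0 of 36 genes, where 0.225% of all genes were called. DESeq2 called 0 of 36, and 75 of all 12460 genes. At an unadjusted p under 0.05 in edgeR there were 4 of 36, and 1146 of all genes. The groups lay apart with eIF4E higher for 4 of 36 genes, PRPF3, PRPF31, DHX16 and DHX15, where 6.16% of all genes did so, and with eIF4E lower for 1, SNRPG, where 7.39% did so. The 9 U5 and tri-snRNP genes had a median of 0.31 and the 7 Sm ring genes one of -0.23.

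PRPF31 had 146, 179 and 201 CPM in eIF4E Cap IP, against 92.4, 126 and 118 CPM in vector Cap IP, at a log2 fold change of 0.65 ± 0.28 (edgeR adjusted p = 0.478). PRPF4 had 103, 79.2 and 68.4 CPM in eIF4E Cap IP, against 71.0, 34.7 and 40.2 CPM in vector Cap IP, which overlapped, at 0.78 ± 0.33 (edgeR adjusted p = 0.478). SNRPG had 24.6, 17.4 and 15.9 CPM in eIF4E Cap IP, against 37.9, 29.4 and 29.4 CPM in vector Cap IP, at -0.74 ± 0.34 (edgeR adjusted p = 0.516). SNRPG, whose values are uncertain because of its pseudogene rows, was thus low in all 3 eIF4E libraries in Cap IP and in input, without passing in either. EFTUD2 had 22.6, 29.9 and 25.8 CPM in eIF4E Cap IP, against 25.3, 9.46 and 9.58 CPM in vector Cap IP, which overlapped, at 0.84 ± 0.39 (edgeR adjusted p = 0.521).

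Other spliceosome genes, from a list of 97 that covers the LSm ring, further U1, U2 and tri-snRNP proteins, the activated and catalytic complexes, the exon junction complex, the minor spliceosome and snRNP assembly, had 84 tested members. In eIF4E cells 8 of 84 were higher in Cap IP and 10 lower, where 21.9% and 23.3% of all genes were. In vector cells 15 of 84 were higher and 6 lower, where 18.5% and 21.0% of all genes were. LSM3, of the ring that binds the end of U6, rose by log2 1.30 ± 0.27 in eIF4E cells (edgeR adjusted p = 0.000743) and 1.60 ± 0.28 in vector cells (edgeR adjusted p = 0.000182). WBP4, a factor of the B complex, rose by log2 1.43 ± 0.34 (edgeR adjusted p = 0.00231) and 2.12 ± 0.37 (edgeR adjusted p = 0.000182). TFIP11, which acts in disassembly, rose in eIF4E cells by log2 1.48 ± 0.30 (edgeR adjusted p = 0.000498), and XAB2, which travels with AQR, fell there, at -1.58 ± 0.34 (edgeR adjusted p = 0.000986). GEMIN4, of the SMN complex that loads Sm rings, fell in vector cells, at log2 -1.53 ± 0.35 (edgeR adjusted p = 0.00183), and CHERP, a U2-associated protein, at -1.05 ± 0.28 (edgeR adjusted p = 0.00609). Between eIF4E and vector input, edgeR called 0 of the 84, where 0.530% of all genes were called. At an unadjusted p under 0.05 there were 8 of 84, and 1683 of all 12460 genes. DESeq2 called 2 of the 84, where it called 151 of all genes. These 2 were ZMAT5 of the minor spliceosome and TFIP11. Their edgeR log2 fold changes were -1.88 ± 0.49 (edgeR adjusted p = 0.0930) and -0.98 ± 0.29 (edgeR adjusted p = 0.143). The median over the 84 was 0.20 in this comparison. Exons of TFIP11 lie opposite 2 other genes, and those of ZMAT5, CHERP and GEMIN4 opposite 1 each, so reads may be mixed here too.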

How the data were processed

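The deposited values are raw read counts per gene name in 12 libraries, with no normalization by the authors. Per the submitters' processing notes, STAR 2.5.1b, featureCounts 1.4.5-p1, GRCh38.p5 and DESeq2 were used. Per the labels' protocols, the KAPA RNA HyperPrep kit with RiboErase, which keeps strand, was used, with 75-cycle single-end reads. The labels state neither the strand setting nor the annotation of the counting.

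With edgeR 4.0.16 (R 4.3.3), genes were filtered by filterByExpr and scaled by TMM, and 4 group means were fitted to all 12 libraries for the quasi-likelihood test. Benjamini-Hochberg adjustment ran over the 12460 genes kept. The 5 comparisons were Cap IP against input in each kind of cells, their difference, and eIF4E against vector in each fraction. A gene was called at an adjusted p under 0.05. Overlap of groups was read on log2 CPM with a prior count of 2.

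The members and lists were chosen with earlier results of these data known. Values in every library are given for called members, at most the 6 with the smallest p in each direction, and otherwise for the 4 with the smallest p. Other members are given by their fold change or counts.

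Replicate pairs differed by a chi-square per degree of freedom of 5.1 to 18.0, so none are copies. Each input title shares a code with 1 Cap IP title, here called its stem, and the labels do not say what the code stands for. The residuals of libraries with the same stem correlated at 0.43, 0.27 and 0.44 in vector cells, and at 0.35, 0.08 and 0.11 in eIF4E cells. A tag shared by eIF4E and vector titles gave 0.20, 0.16 and 0.30 among Cap IP libraries, and 0.18, 0.01 and -0.04 among input libraries. Correlations between libraries that share neither a stem nor a tag were not computed, so pairing was not tested.

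Gene positions and lengths came from GENCODE release 44 and promoters from RefSeq, and the U2AF1 transcript was aligned with BLAST 2.17.0. Sequences, lengths and plots were handled in Python 3.11.15 with pandas 2.3.3 and matplotlib 3.10.9. The procedure was tested on simulated data. Alternatives were DESeq2 1.42.0, its size factors, total counts as library sizes, library sizes without the 20 most abundant genes, no filter, at least 50 counts in 3 libraries, only the groups compared, the replicate block and each library left out.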

Additional observations from a re-analysis of the deposited data

How the results depend on the processing

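The number of the 36 genes called in either direction stayed within 1.5 times of that reported under every alternative other than a left-out library, but the split did not: with total counts as library sizes 0 genes were higher and 22 lower in eIF4E cells, and 0 higher and 15 lower in vector cells. In vector cells, 9 genes were called for Cap IP against input without any 1 of vector Cap IP replicate 1, vector Cap IP replicate 2 or vector input replicate 3. Over the 6 libraries left out in turn the count ran between 9 and 13 in vector cells and between 11 and 14 in eIF4E cells. The share of all genes called in these fits is not given here, so whether it fell likewise was not tested. The median of the 36 genes for Cap IP against input ran between -0.241 and -0.013 in eIF4E cells and between 0.048 and 0.373 in vector cells. It ran between 0.006 and 0.121 for eIF4E against vector in Cap IP, between 0.297 and 0.579 for eIF4E against vector in input, and between -0.372 and -0.136 for the difference over 12 libraries. Scaled to total counts, the Cap IP medians were -0.953 in eIF4E cells and -0.514 in vector cells, and PRPF31 in eIF4E cells turned to -0.054. With at least 50 counts in 3 libraries, which kept 27 of the genes, the medians were -0.253 in eIF4E cells and 0.057 in vector cells, and with no filter the eIF4E median was -0.283. The cause was not tested. With no filter on low counts, edgeR no longer called DHX16, SNRPB2 and PRPF31 in eIF4E cells (adjusted p = 0.0513, 0.133 and 0.204), nor SNRPD2, SNRNP70 and DHX8 in vector cells (adjusted p = 0.0637, 0.0702 and 0.125). With only the groups compared, DHX8 in vector cells had an edgeR adjusted p of 0.0517. With the replicate block, 18 genes were called in eIF4E cells, the added ones being SNRPG, SNRPA1 and CDC5L, and 17 in vector cells, where 53.7% and 48.8% of all genes were called, in place of 45.1% and 39.5%. The block added no call in the other 3 comparisons. Depth limits the genes with few counts, above all AQR with 87 counts in all.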
